A study of Mus musculus with 14 samples.

Results

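The predicted tRNA rows of this hippocampal RNA-seq table are the rows whose identifiers are bare numbers, that is, neither Ensembl mouse genes nor spike-ins. The table held 26248 such rows among 81881 rows in all, and 14925 of them (56.9%) had at least 10 counts summed over the 14 libraries and are described here. Of the remaining 11323 rows, 4993 had 0 counts in every library. At the threshold itself, 425 rows had exactly 10 counts and 411 rows had exactly 9. The table gives no position, codon or amino acid for these rows, so they could not be grouped by predicted type, and no sequence is shown.

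The study asked whether the kinase IRAK4 affects the brain in a mouse model of neuropsychiatric lupus. Hippocampi of perfused mice aged 10 months were sequenced in 4 groups. MRL mice (B6.MRL-Fas lpr/J, n = 4) carry the lpr mutation of Fas, which leads to lupus-like autoimmunity. MRL-IRAK4-KD mice (n = 4) carry lpr together with a kinase-dead form of IRAK4, the kinase that acts directly below Toll-like and interleukin-1 receptors. C57BL/6 mice (C57BL6/J in the labels, n = 3) carry neither allele, and IRAK4-KD mice (n = 3) carry the kinase-dead allele alone. All 4 groups were on the C57BL/6 background, the labels name no treatment, and neither allele is described as limited to a cell type. Each library was labelled as a separate sample, with nothing said of litters.

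Transfer RNAs are short adaptor RNAs that carry amino acids to the ribosome. Their nuclear genes are copied by RNA polymerase III, trimmed at both ends, modified at many bases and charged by aminoacyl-tRNA synthetases. Genome scans predict many more tRNA-like loci than there are active tRNA genes, because tRNA-derived repeats and decayed copies resemble them. Many tRNA genes are near-identical copies, so reads can be split among rows in ways the counts do not show. Mature tRNAs are densely folded and end in CCA instead of a poly(A) tail, and the labels describe these libraries as poly(A) RNA. The counts below are therefore counts at predicted tRNA loci. They were not shown here to come from mature tRNA.

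The predicted tRNA rows lay near the bottom of the table. The median row held 48 counts over all libraries, or 3.43 counts per library, whereas the median of the 38070 Ensembl genes with at least 10 counts was 2146. In all, 10664 rows (71.5%) had between 10 and 99 counts, 4261 (28.5%) had at least 100, 178 (1.19%) had at least 1000 and 2 had at least 10000. A count was present in every library for 5869 rows (39.3%), against 69.6% of the Ensembl genes. The median of the rows' mean levels was 0.00822 CPM (counts scaled to a common library size with TMM, edgeR's trimmed mean of M-values), and 8 rows exceeded a mean of 1 CPM. By comparison, the 22 tRNA genes of the mitochondrial genome had a median level of 11.8 CPM, and 2 predicted rows lay above the lowest of them, mt-Tf, at 2.07 CPM. Levels here are per library and not per length, because the table gives no length for the predicted rows.

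**Figure D1:**
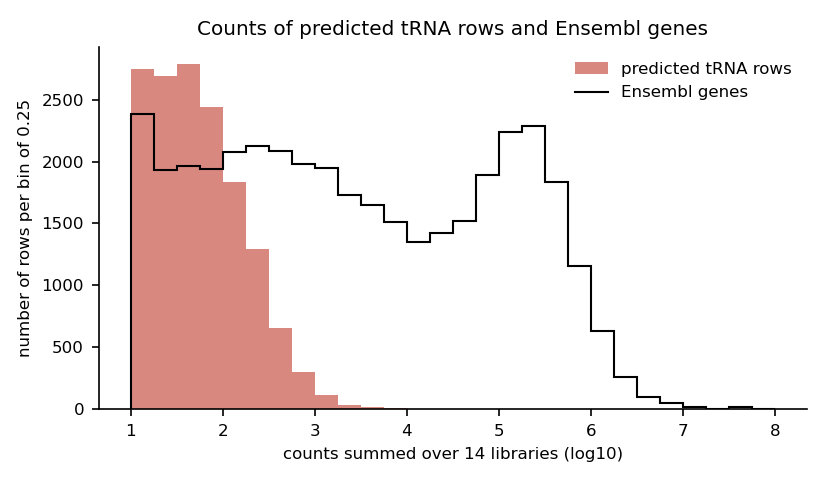
The x axis shows counts summed over the 14 libraries on a log10 scale and the y axis the number of rows in each bin of 0.25. The filled outline stands for the 14925 predicted tRNA rows, which have a median of 48 counts, and the line stands for the 38070 Ensembl genes, which have a median of 2146.

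Total counts ranged from 279941472 to 572398312 per library. MRL-IRAK4-KD replicate 4 stood apart from the other 13 libraries, with a library concentration of 13.48 nM against 23.49 to 27.55 nM, an input reading of 27.4 against 39.6 to 43.7 in the unit of the sequencing sheet, and Malat1, a nuclear-retained long RNA, at 7793 CPM against 1813 to 3515 CPM. Its 5 choroid plexus markers summed to 6731 CPM against 65.3 to 1677 CPM elsewhere, and its 5 hippocampal markers to 1705 CPM against a lowest sum of 613 CPM. All 5 hippocampal markers were detected. Fas checked the lpr labels. The full-length Fas transcript had 0 counts in every library with the lpr label and 345 to 584 counts in the C57BL/6 libraries, but the library labelled IRAK4-KD replicate 3 had 0 as well, against 360 and 386 in the other IRAK4-KD libraries. That library held 514 counts of the short transcript seen in lpr mice, so the called results and the counts of rows that involve IRAK4-KD are given with and without it. Its striatal markers were also the highest of all libraries, at 263 CPM. Irak4 ranged from 1.33 to 2.78 CPM, which does not check a kinase-dead allele.

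One row dominated the counts. Row 7933, the highest by mean level, held 2316321 of the 4119918 counts of the predicted tRNA rows (56.2%). In MRL it had 141544, 302720, 227408 and 374706 counts, which is 310.2, 540.3, 487 and 800.3 CPM. In MRL-IRAK4-KD it had 59157, 326, 50391 and 338826 counts, or 124, 0.926, 117 and 947 CPM. In C57BL/6 the levels were 504, 475 and 193 CPM, and in IRAK4-KD they were 59.9, 360 and 463 CPM. The 4 groups overlapped, and the lowest and the highest library of the whole series were both MRL-IRAK4-KD. Mean levels were 534 ± 203 CPM in MRL (SD, n = 4), 297 ± 437 CPM in MRL-IRAK4-KD (n = 4), 391 ± 172 CPM in C57BL/6 (n = 3) and 294 ± 209 CPM in IRAK4-KD (n = 3), or 210 ± 212 CPM without the library labelled replicate 3 (n = 2). In edgeR's quasi-likelihood test, row 7933 had a log2 fold change of 0.85 ± 1.10 (SE) for MRL against MRL-IRAK4-KD, with an adjusted p of 0.786, and adjusted p-values of 0.944 or more in the other comparisons. Depending on the library, this single row made up between 0.366% and 75.2% of the counts at predicted tRNA rows.

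The predicted tRNA rows together took between 0.0250% and 0.188% of the counts of a library. Without row 7933 the range narrowed in 13 of the libraries. The share was then 0.0203%, 0.0293%, 0.0250% and 0.0252% in MRL, and 0.0234%, 0.0249%, 0.0238% and 0.0825% in MRL-IRAK4-KD. It was 0.0348%, 0.0287% and 0.0286% in C57BL/6, and 0.0329%, 0.0281% and 0.0294% in IRAK4-KD. MRL-IRAK4-KD replicate 4 was the 1 library far above the rest, with a 95% Wilson interval of 0.08223% to 0.08286%. Each interval reached at most 0.697% of the share to either side in any library, and they cover counting error only. In bulk tissue, fewer cells with such RNA and less RNA per cell cannot be told apart.

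**Figure D2:**
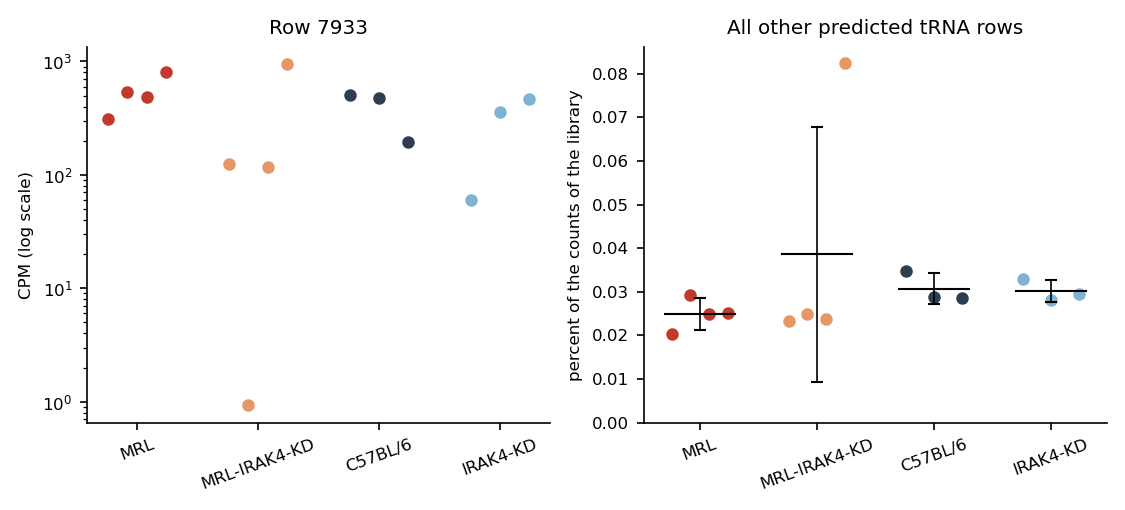
The left panel shows the level of row 7933 in each library in CPM on a log axis, and the right panel shows all other predicted tRNA rows as percent of the counts of the library. Points are libraries in 4 groups, and bars in the right panel are the group mean ± SD. Row 7933 ran from 0.926 to 947 CPM within MRL-IRAK4-KD, and the other rows reached 0.0825% in MRL-IRAK4-KD replicate 4 against 0.0203% to 0.0348% elsewhere.

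No comparison of the summed share passed its test. With row 7933 included, MRL stood at 0.0765 ± 0.0217% (SD, n = 4), MRL-IRAK4-KD at 0.0708 ± 0.0780% (n = 4), C57BL/6 at 0.0708 ± 0.0202% (n = 3) and IRAK4-KD at 0.0598 ± 0.0188% (n = 3). The adjusted p of the exact two-sided permutation test was 0.943 in all 6 comparisons. The next setting, without row 7933 and without MRL-IRAK4-KD replicate 4, was chosen after the values were seen. There the means of both lpr groups lay below those of both groups without the lpr label. MRL was at 0.0249 ± 0.00371% (n = 4) and MRL-IRAK4-KD at 0.0240 ± 0.000793% (n = 3), against 0.0307 ± 0.00354% in C57BL/6 (n = 3) and 0.0301 ± 0.00248% in IRAK4-KD (n = 3). The adjusted exact p was 0.229 for MRL-IRAK4-KD against C57BL/6, 0.229 for MRL-IRAK4-KD against IRAK4-KD, 0.229 for MRL against IRAK4-KD, and 0.257 for MRL against C57BL/6. These 3 MRL-IRAK4-KD libraries did not overlap with either group of 3. The smallest p that 3 against 3 allows is 0.10. With 4 against 3 libraries it is 0.0286. After adjustment over 6 comparisons, 1 comparison alone at either limit would not pass. These results therefore do not show that the groups were equal. Leaving out the library labelled IRAK4-KD replicate 3 as well gave 0.0305 ± 0.00340% in IRAK4-KD (n = 2). Without row 7933 but with MRL-IRAK4-KD replicate 4 kept, MRL-IRAK4-KD had the highest mean of the 4 groups, at 0.0387 ± 0.0293% (n = 4).

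The number of rows reaching 0.1 CPM was 368 ± 81.3 rows in MRL (SD, n = 4), 435 ± 28 in C57BL/6 (n = 3) and 424 ± 24 in IRAK4-KD (n = 3), or 412 ± 16.3 there without the library labelled replicate 3 (n = 2). In MRL-IRAK4-KD it was 313, 355, 331 and 1668 rows. None of the 6 comparisons passed the exact permutation test, and the adjusted p was 0.914 in each. With so few libraries, 1 comparison alone could not have passed after adjustment, whatever its size.

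Across libraries, the share of predicted tRNA rows moved with that of nuclear-retained long RNAs, a list of 8 genes that includes Malat1, Meg3, Miat, Mirg and Kcnq1ot1. These RNAs stay largely in the nucleus, and the list took between 0.642% and 1.75% of the counts. For all rows, Pearson's r was 0.676 over 14 libraries (permutation p = 0.013, adjusted over 3 relations 0.039) and Spearman's rho was 0.525 (permutation p = 0.0569, adjusted 0.171). Without MRL-IRAK4-KD replicate 4 and MRL replicate 1, the libraries farthest from the median of the list, r was 0.318, so the pooled relation rested on them, and without MRL-IRAK4-KD replicate 4 alone it was 0.335. After the mean of each group was removed, r was 0.915, and 0.648 without MRL-IRAK4-KD replicate 4. For the rows without row 7933, an outcome chosen after the values were seen, r was 0.787 and rho was 0.886 over 14 libraries. Both had a permutation p of 1e-05, the smallest that 100000 permutations can give, and an adjusted p of 3e-05. The coefficient was 0.792 without the same 2 libraries and 0.854 without MRL-IRAK4-KD replicate 4 alone. After the mean of each group was removed, r was 0.91 over all libraries and 0.816 without MRL-IRAK4-KD replicate 4. These pooled values were not tested, and they do not hold for each group. In IRAK4-KD the list took 1.35%, 1.38% and 1.36% of the counts, and the share was 0.0329%, 0.0281% and 0.0294%, the reverse order. In the other groups both rose in the same order. Both shares come from the same counts of a library, as percent of 1 total. No group holds enough libraries for a coefficient of its own.

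The relations with depth and with mitochondrial RNA did not pass the test. Without row 7933, r was -0.419 with total counts (permutation p = 0.146, adjusted 0.219) and rho was -0.314 (permutation p = 0.274, adjusted 0.274). For genes of the mitochondrial genome, r was -0.32 (permutation p = 0.264, adjusted 0.264) and rho was -0.367 (permutation p = 0.198, adjusted 0.274). Leaving out the 2 libraries farthest from the median gave r of -0.575 and -0.414, and removing group means gave -0.401 and -0.26. Without MRL-IRAK4-KD replicate 4, r was -0.302 and -0.221, and with group means also removed the signs turned, to 0.132 and 0.35. With row 7933 included, the same relations had r of -0.199 (permutation p = 0.514, adjusted 0.771) and 0.053 (permutation p = 0.849, adjusted 0.849), and rho of -0.0462 (permutation p = 0.88, adjusted 0.88) and 0.244 (permutation p = 0.395, adjusted 0.593). Without the 2 farthest libraries these r were -0.289 and -0.212, and with group means removed they were -0.324 and -0.0795. Without MRL-IRAK4-KD replicate 4 the signs were positive, with r of 0.19 for total counts and 0.522 for mitochondrial genes, and 0.213 and 0.614 with group means removed.

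**Figure D3:**
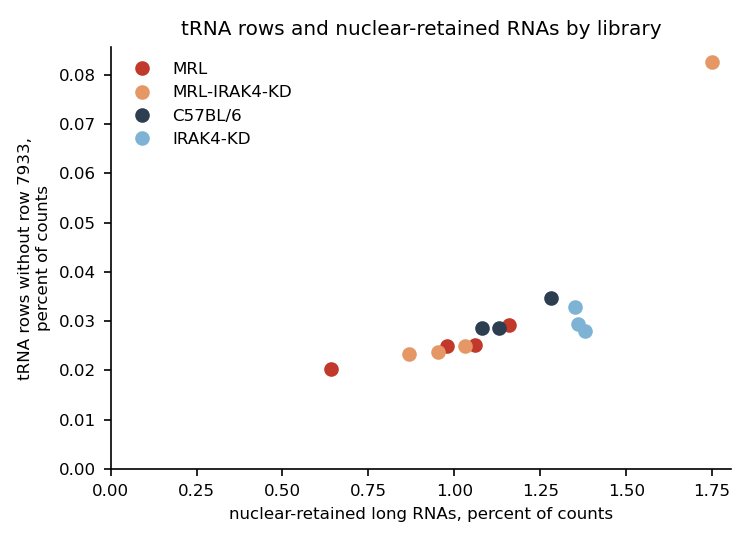
Each point is a library, coloured by group, with the share of nuclear-retained long RNAs on the x axis and the share of predicted tRNA rows without row 7933 on the y axis, both in percent of the counts. The 14 libraries rise together with r = 0.787, from MRL replicate 1 at 0.642% and 0.0203% to MRL-IRAK4-KD replicate 4 at 1.75% and 0.0825%.

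MRL-IRAK4-KD replicate 4 differed from the other libraries row by row as well. It was the highest library for 5523 of the predicted tRNA rows (37.0%) and for 20.6% of the Ensembl genes. Of the 178 rows with at least 1000 counts, 106 (59.6%) were highest there, and their median ratio to the median of the other 13 libraries was 2.40, with single rows between 0.00575 and 28.6. Among 6831 Ensembl genes with 1000 to 9999 counts the median ratio was 0.952, and 28.1% were highest there. C57BL/6 replicate 1 and IRAK4-KD replicate 1 followed, as the highest library for 2024 (13.6%) and 1512 (10.1%) of the predicted rows. The first principal component of the predicted rows held 30.2% of their variance and gave a score of 170.7 to MRL-IRAK4-KD replicate 4, with the other 13 libraries between -29.2 and -1.6. The Ensembl genes set it apart too. Their first component held 23.3% and gave it a score of 254.7, with the other 13 libraries between -44.6 and 7.1. Whether the choroid plexus RNA or the low input of this library had a part in these levels was not tested.

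The rows of highest level after row 7933 showed both directions in that library. The second highest row had 2.24 to 3.49 CPM in the other 13 libraries and 1.06 CPM in MRL-IRAK4-KD replicate 4, where it was lowest. The third had 0.594 to 1.96 CPM elsewhere and 4.95 CPM there. The fourth had 0.590 to 1.34 CPM elsewhere and 5.91 CPM there. The fifth had 0.495 to 1.48 CPM elsewhere and 3.37 CPM there. None of these 4 rows was called in any comparison. The 2 rows with at least 1000 counts that were most concentrated in 1 library were again highest there, with 724 of 1093 counts (66.2%) and 463 of 1082 counts (42.8%), against 6 to 69 and 26 to 89 counts in the other libraries.

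Spread between replicates was largest in the group with that library. Among the 176 rows with 1000 to 9999 counts, the median coefficient of variation was 22.7% in MRL, 16.1% in C57BL/6 and 20.3% in IRAK4-KD, against 25.1%, 22.7% and 22.6% for Ensembl genes in the same range. In MRL-IRAK4-KD it was 64.0% with all 4 libraries and 14.8% with 3, against 38.0% and 19.0% for Ensembl genes. Among rows with at least 100 but under 1000 counts, it was 36.2% in MRL, 35.4% in C57BL/6 and 33.8% in IRAK4-KD, against 52.5%, 55.1% and 49.2% for Ensembl genes, and in MRL-IRAK4-KD it was 72.0% with all 4 libraries and 32.7% with 3, against 69.8% and 48.3%. Over all levels the median biological coefficient of variation in the edgeR fit was 0.747 for predicted rows and 0.39 for Ensembl genes, which have higher counts.

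Few predicted tRNA rows were called in any comparison at an adjusted p below 0.05 in edgeR's quasi-likelihood test over 52995 rows. IRAK4-KD against C57BL/6 called 1 predicted row, which was lower, beside 0.0943% of all rows tested in either direction and 0.0755% in that direction. MRL against IRAK4-KD called 3, beside 0.223%, with 1 higher beside 0.17% and 2 lower beside 0.0528% of all rows. The other 4 comparisons called none. There the share called of all rows was 0.0528% for MRL against MRL-IRAK4-KD, 0% for MRL against C57BL/6, 0.0528% for MRL-IRAK4-KD against IRAK4-KD and 0.0566% for MRL-IRAK4-KD against C57BL/6. The interaction, which is the log2 fold change of MRL against MRL-IRAK4-KD minus that of C57BL/6 against IRAK4-KD, also called no predicted row, beside 0.00189%. The counts of predicted rows at an unadjusted p below 0.05 are given further on for each. DESeq2 called 9, 1, 14 and 6 predicted rows in those 4 comparisons and none in the interaction, and limma-voom called 1, 1, 2, 3 and none.

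Row 16119 was lower in IRAK4-KD than in C57BL/6 and MRL. It had 12, 13, 13 and 8 counts in MRL and 8, 5 and 11 counts in C57BL/6. It had 2, 2, 1 and 2 counts in MRL-IRAK4-KD and 0 counts in each IRAK4-KD library. The kinase-dead and kinase-intact libraries did not overlap. The row was picked for its small p, and how many of all rows show such a split was not counted. Against 3 counts over the whole IRAK4-KD group, the observed level was 10.2-fold higher in C57BL/6 (adjusted p = 0.0266, edgeR quasi-likelihood) and 10.6-fold higher in MRL (adjusted p = 0.0143). These ratios leave out the error of the observed level and the spread between libraries, so they are not lower limits. Without the library labelled IRAK4-KD replicate 3 they were 6.06 and 6.32, and the adjusted p became 0.154 and 0.0861. With each of the 14 libraries left out in turn, the call against C57BL/6 was lost in 12 cases and remained without MRL-IRAK4-KD replicate 3 (adjusted p = 0.0404) or MRL-IRAK4-KD replicate 4 (adjusted p = 0.0214). The call against MRL was lost in 3 cases, without any 1 of the IRAK4-KD libraries. MRL against MRL-IRAK4-KD had a log2 fold change of 2.35 ± 0.586 (SE) with an adjusted p of 0.448. The interaction had an adjusted p of 0.939.

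Rows 47401 and 47402, which carry consecutive numbers, were lower in MRL than in IRAK4-KD. Row 47401 had 0 counts in each of the 8 libraries with the lpr label, 7, 22 and 25 counts in C57BL/6 and 28, 25 and 25 counts in IRAK4-KD. Against 3 counts over the whole MRL group, its observed level was 37.6-fold higher in IRAK4-KD (adjusted p = 0.0445, edgeR quasi-likelihood), again a ratio and not a limit. Row 47402 had 9, 17, 6 and 9 counts in MRL and 8, 7, 8 and 13 in MRL-IRAK4-KD. It had 39, 35 and 49 counts in C57BL/6 and 30, 54 and 57 in IRAK4-KD. Its level was 0.0205 ± 0.00725 CPM in MRL (SD, n = 4) and 0.105 ± 0.0308 CPM in IRAK4-KD (n = 3), a log2 fold change of -2.33 ± 0.434 (SE) with an adjusted p of 0.0493.

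Both rows split the libraries by lpr label without overlap. They were picked for a small p in MRL against IRAK4-KD, which favours such a split. How many of all rows split the libraries this way was not counted. The library labelled IRAK4-KD replicate 3, whose Fas transcripts were of the lpr kind, had 25 counts of row 47401 and 57 counts of row 47402, as the other libraries without the lpr label did. Without it, the ratio for row 47401 was 42.9-fold and the adjusted p became 0.189, and for row 47402 the adjusted p became 0.222. With each library left out in turn, the call of row 47401 was lost in 9 of 14 cases (each MRL and IRAK4-KD library, and C57BL/6 replicates 2 and 3). The call of row 47402 was lost in 13 of 14, and remained without MRL-IRAK4-KD replicate 4 (adjusted p = 0.00799). The other comparisons across the lpr label did not pass the test. For row 47401 the adjusted p was 0.312 for MRL against C57BL/6, 0.118 for MRL-IRAK4-KD against IRAK4-KD and 0.164 for MRL-IRAK4-KD against C57BL/6. For row 47402 these values were 0.292, 0.174 and 0.153.

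**Figure D4:**
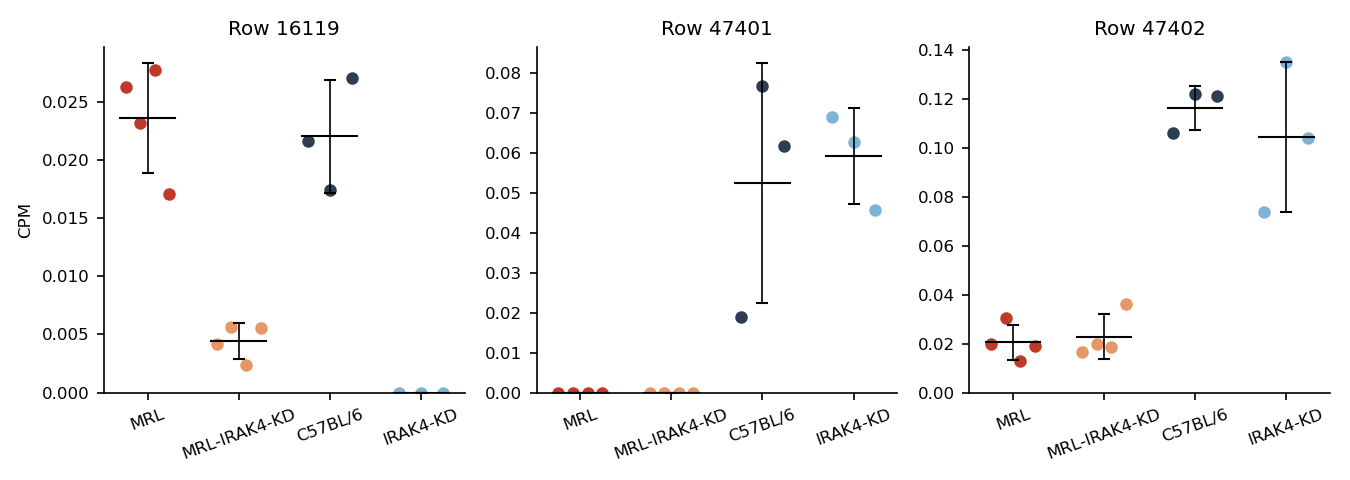
The panels show the 3 called rows in CPM (y axis) in each library of the 4 groups, with lines at the group mean ± SD. Row 16119 is at 0 in the 3 IRAK4-KD libraries and at 0.00233 to 0.00568 CPM in MRL-IRAK4-KD, and row 47401 is at 0 in the 8 libraries with the lpr label.

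The rows of smallest p in the comparisons without a call are given as values only. For MRL against MRL-IRAK4-KD, the row most clearly higher had 11 to 18 counts in MRL and 2 to 5 in MRL-IRAK4-KD (adjusted p = 0.406, edgeR), and the row most clearly lower had 0 counts in MRL and 2 to 9 in MRL-IRAK4-KD (adjusted p = 0.231). For MRL against C57BL/6, the higher row had 9 to 37 counts against 2 to 3 (adjusted p = 0.716, edgeR), and the lower row was row 47402. For MRL-IRAK4-KD against IRAK4-KD, the higher row had 6 to 54 counts against 3 to 4 (adjusted p = 0.474, edgeR), and the lower was row 47401. For MRL-IRAK4-KD against C57BL/6, the higher row had 8 to 22 counts against 0 to 1 (adjusted p = 0.604, edgeR), and the lower was row 47402. All these rows held 49 to 341 counts over the 14 libraries.

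At an unadjusted p below 0.05, more of the predicted tRNA rows were lower than higher in the first group in 5 of the 6 comparisons. With each library left out in turn, this stayed so for MRL against C57BL/6 and MRL against IRAK4-KD, and it turned in the other 3. In all 6 comparisons, the share of predicted rows that were higher in the first group was below that of all rows tested. The share that were lower exceeded that of all rows only for MRL against MRL-IRAK4-KD. For MRL against MRL-IRAK4-KD, 1088 predicted rows (7.29%) passed, beside 9.73% of all rows tested. Of these, 270 (1.81%) were higher in MRL, beside 4.74% of all rows, and 818 (5.48%) were lower, beside 4.99%. The median log2 fold change of the predicted rows was -0.29, and that of all rows was 0.01. Without MRL-IRAK4-KD replicate 4 the direction turned, with 279 rows higher and 136 lower and a median of 0.09. Leaving out any other library kept more rows lower than higher, with 434 lower without MRL replicate 1, 485 without MRL replicate 3 and 173 higher without MRL replicate 4 as the counts that moved most downward.

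For MRL against C57BL/6, 460 rows (3.08%) passed, beside 5.23% of all rows. Of these, 95 (0.637%) were higher in MRL, beside 2.71%, and 365 (2.45%) lower, beside 2.52%, with a median log2 fold change of -0.26. Without C57BL/6 replicate 1, 109 were higher and 172 lower, with a median of -0.05. For IRAK4-KD against C57BL/6, 245 rows (1.64%) passed, beside 3.48%. Of these, 124 (0.831%) were higher, beside 1.57%, and 121 (0.811%) lower, beside 1.91%, with a median of -0.05. Without C57BL/6 replicate 1 these became 195 higher and 84 lower, with a median of 0.14, and without IRAK4-KD replicate 1 they became 91 higher and 164 lower, with a median of -0.17. Without the library labelled IRAK4-KD replicate 3 they were 117 and 99.

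For MRL-IRAK4-KD against IRAK4-KD, 847 rows (5.68%) passed, beside 7.65%. Of these, 344 (2.3%) were higher in MRL-IRAK4-KD, beside 4.01%, and 503 (3.37%) lower, beside 3.64%, with a median log2 fold change of 0.10. Without MRL-IRAK4-KD replicate 4, 80 were higher and 581 lower, with a median of -0.32. Without MRL-IRAK4-KD replicate 1, 2 or 3 the majority turned, with 603 and 428, 641 and 491, and 616 and 472 rows higher and lower. Without IRAK4-KD replicate 1, 2 or the library labelled replicate 3 it was 187 and 264, 174 and 541, and 157 and 414. For MRL-IRAK4-KD against C57BL/6, 981 rows (6.57%) passed, beside 8.11%. Of these, 357 (2.39%) were higher, beside 3.54%, and 624 (4.18%) lower, beside 4.57%, with a median of 0.05. Without MRL-IRAK4-KD replicate 4, 98 were higher and 660 lower, with a median of -0.32, and without C57BL/6 replicate 1, 207 were higher and 246 lower, with a median of 0.29. Without C57BL/6 replicate 2 or 3 it was 197 and 662, and 181 and 593. Without MRL-IRAK4-KD replicate 1, 2 or 3 slightly more rows were higher than lower, with 560 and 502, 586 and 572, and 567 and 541. For MRL against IRAK4-KD, 469 rows (3.14%) passed, beside 7.66%. Of these, 108 (0.724%) were higher in MRL, beside 4.62%, and 361 (2.42%) lower, beside 3.04%, with a median of -0.21. Without IRAK4-KD replicate 1, 88 were higher and 189 lower, with a median of -0.06. Without the library labelled IRAK4-KD replicate 3, 70 were higher and 334 lower, with a median of -0.24. For the interaction, 492 rows (3.30%) passed, beside 4.09%. Of these, 175 (1.17%) were positive, beside 1.94%, and 317 (2.12%) negative, beside 2.15%, with a median of -0.33. This turned to 265 positive and 145 negative and a median of 0.08 without MRL-IRAK4-KD replicate 4, and to 321 positive and 229 negative with a median of -0.11 without C57BL/6 replicate 1. Without IRAK4-KD replicate 1 it was 124 and 342 with a median of -0.51, without MRL-IRAK4-KD replicate 2 it was 214 and 484, and without the library labelled IRAK4-KD replicate 3 it was 161 and 223.

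**Figure D5:**
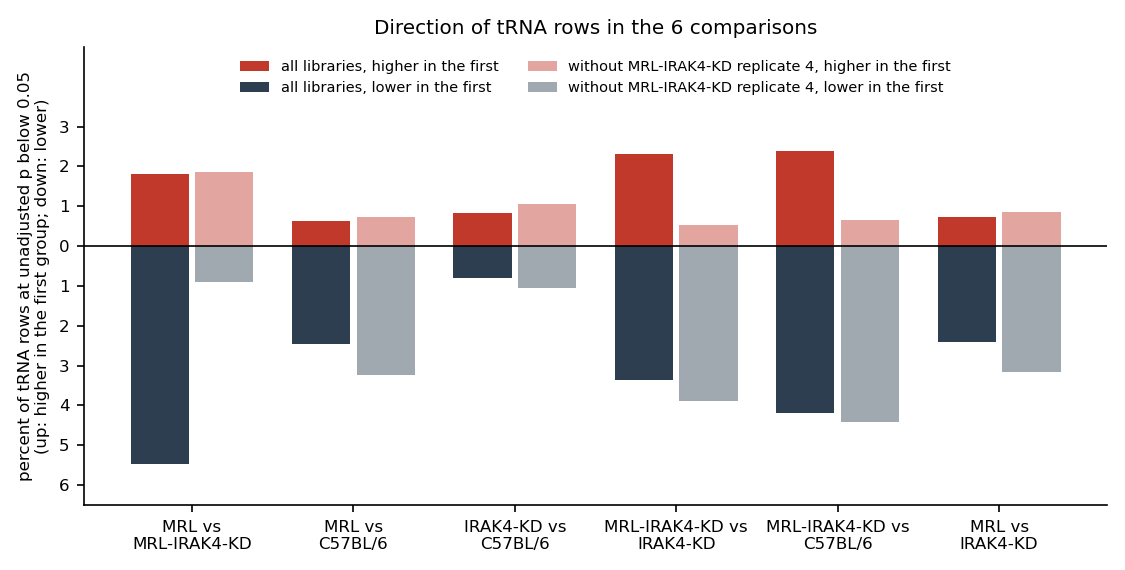
Bars show the percent of predicted tRNA rows at an unadjusted p below 0.05 in each of the 6 comparisons, upward for rows higher in the first group and downward for rows lower in it. Solid bars use all libraries and pale bars leave out MRL-IRAK4-KD replicate 4. For MRL against MRL-IRAK4-KD the 818 lower rows fell to 136 without that library.

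The genes that make and handle tRNA were measured far more deeply than the predicted rows. RNA polymerase III and its factors (31 genes, subunits of the polymerase and the proteins that place it on tRNA genes) summed to between 839.5 and 1038 CPM per library. None was called in any comparison, and at most 4 of them had an unadjusted p below 0.05. The smallest p-values belonged to Snapc3, a subunit of the complex that serves small nuclear RNA promoters, at 33.9 ± 3.09 CPM in IRAK4-KD (SD, n = 3) and 22.7 ± 1.79 CPM in MRL-IRAK4-KD (n = 4), a log2 fold change of -0.58 ± 0.0987 (SE) with an adjusted p of 0.0697 in edgeR. Maf1, the repressor of RNA polymerase III, had 45.5 ± 2.75 CPM in MRL-IRAK4-KD (SD, n = 4) and 39.3 ± 2.08 CPM in IRAK4-KD (n = 3), with an adjusted p of 0.614 in edgeR.

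The cytosolic aminoacyl-tRNA synthetases and their scaffold (23 genes) summed to between 1316 and 1594 CPM, and none was called, with at most 4 at an unadjusted p below 0.05. Cars, which charges cysteine tRNA, had the smallest p, at 39.7 ± 3.32 CPM in MRL (SD, n = 4) against 31.2 ± 0.0947 CPM in IRAK4-KD (n = 3), with an adjusted p of 0.165 in edgeR. In the list of tRNA processing, modification, export and cleavage (48 genes, 1076 to 1236 CPM in sum), none was called either, and at most 7 had an unadjusted p below 0.05. Rpp30, a protein subunit of RNase P, which trims the 5′ end of tRNA, had 13.1 ± 0.719 CPM in MRL-IRAK4-KD (SD, n = 4) and 9.05 ± 0.220 CPM in C57BL/6 (n = 3), with an adjusted p of 0.136 in edgeR. It had 12.0 ± 0.826 CPM in MRL (n = 4) and 9.44 ± 0.469 CPM in IRAK4-KD (n = 3), so both groups with the lpr label had the higher means. Rpp30 lies on chromosome 19 (36083716 to 36104777), as Fas does. Whether strain sequence carried along with the lpr allele had a part in its level was not tested. Slfn2, which protects tRNA from cleavage, had 2.97 ± 1.55 CPM in MRL (SD, n = 4) and 1.15 ± 0.188 CPM in C57BL/6 (n = 3), with an adjusted p of 0.658 in edgeR. The median log2 fold change of these 3 lists lay between -0.03 and 0.08 in the 6 comparisons. Of 10 other short RNAs made by RNA polymerase III, 8 were tested and none was called, with at most 1 at an unadjusted p below 0.05. Rn7sk, which holds back transcription elongation, had 4.26 ± 2.56 CPM in MRL (SD, n = 4) and 2.89 ± 0.678 CPM in MRL-IRAK4-KD (n = 4), with an adjusted p of 0.632 in edgeR. None of the 8 nuclear-retained long RNAs was called, and at most 3 had an unadjusted p below 0.05. Miat had 439.5 ± 129 CPM in MRL-IRAK4-KD (SD, n = 4) and 814 ± 87.5 CPM in IRAK4-KD (n = 3), with an adjusted p of 0.352 in edgeR.

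The tRNA genes of the mitochondrial genome are annotated as Ensembl genes and stood apart from the predicted rows in level and in calls. They are cut out of long transcripts that run along the mitochondrial DNA, and the counts do not tell a tRNA from a longer RNA that covers it. The 22 genes summed to between 492 and 754 CPM. No gene was called for MRL against MRL-IRAK4-KD, MRL against C57BL/6 or MRL-IRAK4-KD against C57BL/6. There 8, 4 and 1 of the 22 genes had an unadjusted p below 0.05, beside 9.73%, 5.23% and 8.11% of all rows tested. The 8 and the 4 were all higher in MRL, and the 1 was lower in MRL-IRAK4-KD. IRAK4-KD against C57BL/6 called 2 lower genes, MRL-IRAK4-KD against IRAK4-KD called 1 higher gene and MRL against IRAK4-KD called 3 higher genes. The shares called of all rows were 0.0943%, 0.0528% and 0.223%. At an unadjusted p below 0.05 the higher and lower genes were 2 and 3, 4 and 2, and 13 and 2, beside 3.48%, 7.65% and 7.66% of all rows. mt-Ti and mt-Tq had their highest group means in IRAK4-KD, at 34.4 ± 17.1 and 21.6 ± 8.79 CPM (SD, n = 3), and neither was called.

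mt-Tg, the glycine tRNA gene (ENSMUSG00000064359.1, mm10 chromosome M, 9391 to 9458), was low in all 3 IRAK4-KD libraries. It had 0.737, 0.823 and 0.759 CPM there, against 8.44 to 14.9 CPM in MRL, 7.67 to 13.7 CPM in MRL-IRAK4-KD and 9.52 to 12.6 CPM in C57BL/6. The lowest of the other libraries lay above the highest IRAK4-KD library. In edgeR's quasi-likelihood test the log2 fold change was -3.87 ± 0.268 (SE, adjusted p = 1.41e-05) for IRAK4-KD against C57BL/6. It was 3.77 ± 0.261 (adjusted p = 6.92e-05) for MRL-IRAK4-KD against IRAK4-KD and 3.97 ± 0.264 (adjusted p = 1.02e-05) for MRL against IRAK4-KD. The interaction was -3.67 ± 0.327 (SE, adjusted p = 0.00163), since MRL and MRL-IRAK4-KD, at 12.1 ± 3.15 and 10.6 ± 2.73 CPM (SD, n = 4 each), were close to C57BL/6. Without the library labelled IRAK4-KD replicate 3 these values stayed called, with adjusted p-values of 0.000485, 0.00254, 0.00032 and 0.0191. That library carried lpr-type Fas transcripts and had the low mt-Tg level of its labelled group.

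mt-Tr, the arginine tRNA gene (ENSMUSG00000064361.1, chromosome M, 9808 to 9875), had 953, 936 and 1280 counts in IRAK4-KD, or 2.35 CPM in each library. It had 6.49 to 10.7 CPM in C57BL/6, 4.57 to 9.74 CPM in MRL and 5.1 to 8.14 CPM in MRL-IRAK4-KD, so the IRAK4-KD libraries were again below all others. The log2 fold change was -1.97 ± 0.305 (SE) against C57BL/6 (adjusted p = 0.0231, edgeR), and MRL against IRAK4-KD gave 1.56 ± 0.288 (adjusted p = 0.0491). MRL-IRAK4-KD against IRAK4-KD had an adjusted p of 0.1158. mt-Tf, the phenylalanine tRNA gene (ENSMUSG00000064336.1, chromosome M, 1 to 68), was higher in MRL, at 3.11 ± 0.219 CPM (SD, n = 4), than in IRAK4-KD, at 1.40 ± 0.131 CPM (n = 3), with a log2 fold change of 1.15 ± 0.212 (SE, adjusted p = 0.0482, edgeR). It had 1.51 ± 0.404 CPM in MRL-IRAK4-KD (SD, n = 4) and 2.13 ± 0.25 CPM in C57BL/6 (n = 3). Without the library labelled IRAK4-KD replicate 3, mt-Tr had adjusted p-values of 0.164 and 0.265 and mt-Tf of 0.224. These calls rested on other libraries too. With each library left out in turn, mt-Tr lost its call against C57BL/6 in 5 of 14 cases (each IRAK4-KD library, and C57BL/6 replicates 1 and 3) and against MRL in 11 of 14, and mt-Tf lost its call in 12 of 14.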

How the data were processed

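RNA from 14 hippocampi was sequenced (total counts per library are given above, and their number sets the precision of each share). The authors deposited counts per gene row and per transcript row. Per the labels' processing notes, HISAT2 2.1.0, SAMtools 1.9 and StringTie 2.1.0 were used on mm10, and StringTie derives counts from coverage. The total counts exceeded the reads of the sequencing sheet in every library, for a reason that was not tested, so intervals on them may be too narrow. The library kit is given differently in the labels and in the study's methods. The identifiers of the gene rows matched GENCODE M21, and the annotation behind the numbered rows is not given in the sources used here. The deposited sequencing sheet gave read counts and, as other values, library and input concentrations. All predicted tRNA rows held the same counts in both tables. The 97 spike-in rows had 0 counts and were left out.

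Members and gene lists were chosen with earlier results of these data known. Rows reaching a sum of 10 counts were fitted together (edgeR 4.0.16 in R 4.3.3, TMM, robust quasi-likelihood, 1 fit of 4 groups), with Benjamini-Hochberg adjustment over 52995 rows. The fit was run on simulated data in which large changes were set only in predicted rows of higher counts. That run does not speak for the many rows of low counts. Shares and detected rows were compared by exact two-sided permutation tests (scipy), adjusted over 6 comparisons. Each p-value judges a difference or relation against the variation between these libraries, and is not a measure of that variation. Replicates of a group differed well beyond counting noise (chi-square per degree of freedom 42.9 or more), so none was merged. Named rows were, per comparison, the 2 higher and 2 lower called rows of smallest p, or 1 each as values where none was called, the 5 of highest mean level, the 2 most concentrated in 1 library among those with at least 1000 counts, and of each gene list the called genes or the 2 of smallest p, of which examples are given. Alternatives were RLE factors, library size alone, DESeq2, limma-voom, other filters, the predicted rows alone, library sizes from Ensembl genes, halved counts, the transcript table, the 2 groups alone, a replicate block and each library left out.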

Additional observations from a re-analysis of the deposited data

Results flagged for a closer look

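By Dixon's criterion for 4 samples, MRL-IRAK4-KD replicate 4 was flagged as far from the other 3 libraries of its group. This held in 10 of the 41 groups of 4 values tested. Chance flags about 1 in 20 of unrelated groups, but the values tested here overlap. Both rows most concentrated in 1 library were also picked for that. The number of flags therefore cannot be set against the rate of chance. It had the highest share of predicted tRNA rows (0.188%), the highest share without row 7933 (0.0825%) and the most rows at 0.1 CPM or more (1668). Within its group it was highest for row 7933 (947 CPM), row 47402 (0.0363 CPM) and the rows ranked 4 and 5 by mean level (5.91 and 3.37 CPM). It was also highest there for both rows most concentrated in 1 library (2.02 and 1.29 CPM), and lowest for the second row by mean level (1.06 CPM). For row 47402 its level was still below that of every C57BL/6 and IRAK4-KD library. Its part in each result is given above by leaving it out.

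For mt-Tg, the difference between the kinase-intact and kinase-dead groups was not the same with and without the lpr label. This is the interaction term of the edgeR fit. The log2 fold change of MRL against MRL-IRAK4-KD minus that of C57BL/6 against IRAK4-KD was -3.67. Only the IRAK4-KD group was low, and MRL-IRAK4-KD, with the same kinase-dead allele, was not. Whether the alleles or another difference between the groups of mice set this level was not tested.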

How the results depend on the processing

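Depth limits most of these rows, since 71.5% held fewer than 100 counts over 14 libraries. No share or detected-row comparison passed its test under any alternative. With so few libraries per group and adjustment over 6 comparisons these tests could hardly pass, so their outcome does not show equal groups. The calls depended on the tool and on single libraries. For IRAK4-KD against C57BL/6 the 1 call became 0 with DESeq2 (adjusted p not available for that row), no filter, only the 2 groups compared, the predicted rows alone, the transcript table, the replicate block, and with MRL-IRAK4-KD replicate 4 and IRAK4-KD replicate 3 both left out (chosen after seeing the data), and 0 to 1 with each library left out. For MRL against IRAK4-KD the 3 calls became 6 with DESeq2, 11 with limma-voom, 1 with only the 2 groups, 1 with the predicted rows alone, 1 with the transcript table, 0 with the replicate block, and 0 to 6 with each library left out (0 without IRAK4-KD replicate 2 or 3, 6 without MRL-IRAK4-KD replicate 4). The 0 calls became 9 and 1 (DESeq2 and limma-voom) for MRL against MRL-IRAK4-KD, 1 and 1 for MRL against C57BL/6, 14 and 2 for MRL-IRAK4-KD against IRAK4-KD, and 6 and 3 for MRL-IRAK4-KD against C57BL/6. With each library left out they stayed at 0 in the first 2, and ran from 0 to 1 in the last 2 and in the interaction (1 without IRAK4-KD replicate 1, MRL-IRAK4-KD replicate 4 and IRAK4-KD replicate 1, in that order). Row 16119 had adjusted p-values of 0.00328 to 0.445 against C57BL/6 and 0.000927 to 0.094 against MRL, row 47401 of 0.000217 to 0.189 and row 47402 of 8.76e-06 to 0.243. mt-Tg stayed called under the alternatives run for it (25 for each comparison and 24 for the interaction, with neither the transcript table nor the predicted rows alone among them). mt-Tr lost its call in 6 of 25 against C57BL/6 and 18 of 25 against MRL, and mt-Tf in 13 of 25. Same-numbered libraries did not deviate together (r from -0.087 to 0.125 over 19 pairs, and 6 of 14 libraries correlated best with their own number), so the replicate block is given only here.

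Differences of the share in percentage points (first minus second group) changed sign, without passing a test, as follows. For MRL against C57BL/6 it was -0.00558 without the 10 highest rows and -0.00574 without row 7933, with or without MRL-IRAK4-KD replicate 4. For MRL against IRAK4-KD these were -0.00492 and -0.00518, and for MRL against MRL-IRAK4-KD -0.0132 and -0.0137, the last being 0.000893 with MRL-IRAK4-KD replicate 4 also left out. For MRL-IRAK4-KD against C57BL/6 it was -1.97e-05 over all predicted rows and -0.000495 without mitochondrial genes in the total. Without row 7933 and MRL-IRAK4-KD replicate 4 it was -0.00663 there and -0.00607 against IRAK4-KD. With each library left out it ran from -0.00957 to 0.0446 for MRL against MRL-IRAK4-KD, -0.00557 to 0.0148 for MRL against C57BL/6, -0.0389 to 0.0153 for MRL-IRAK4-KD against C57BL/6 and -0.0279 to 0.0263 for MRL-IRAK4-KD against IRAK4-KD. Differences in detected rows changed sign at 1 CPM for IRAK4-KD against C57BL/6 (1). At 1 count they were 552 there, 23.5 for MRL against C57BL/6, 621 for MRL against MRL-IRAK4-KD, -598 for MRL-IRAK4-KD against C57BL/6 and -1150 for MRL-IRAK4-KD against IRAK4-KD. With each library left out they ran from -25.8 to 2.17, and, for the comparisons with MRL-IRAK4-KD, from -416 to 35.2 (MRL), -102 to 349 (C57BL/6) and -90.7 to 361 (IRAK4-KD). The cause was not tested.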
